A study of Homo sapiens with 12 samples.

Results

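The genes described here are 10 regulators of the mitotic gene programme: LIN9, LIN37, LIN52, LIN54 and RBBP4, which encode the MuvB core complex, the MYB family genes MYBL1 and MYBL2, the forkhead factor gene FOXM1, and the pocket protein genes RBL1 and RBL2. They were taken by symbol from a list of these complexes that was drawn up with earlier results of these data known, and all 10 had a transcript cluster (the set of probes that the array reads as 1 gene) among the 14884 genes tested. The cells were MDA-MB-231 and HCC70, established lines from human breast cancers of the triple-negative class, and their RNA was read on 12 Human Gene 2.0 ST arrays. JQ1 (500 nM) or vehicle alone (0.1% DMSO) was applied for 72 hours, which gives 4 groups of 3 arrays. JQ1 is a small molecule that displaces BET bromodomain proteins from acetylated chromatin. Whether the arrays of 1 group stem from different cultures is not stated in the labels, and the p-values cover only the spread seen among these arrays, which may be technical. No other agent and no genetic change is named for any group.

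MuvB is a scaffold that changes partners through the cell cycle. Bound to a pocket protein (p107, encoded by RBL1, or p130, encoded by RBL2) and an E2F with its DP partner, it forms the DREAM complex, which represses cell cycle genes in resting cells. Bound to B-MYB, encoded by MYBL2, and later to FOXM1, the same core activates the genes of G2 and mitosis. LIN54 is the subunit that contacts DNA, at the CHR element of such promoters.

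The start regions of 4 genes are shown because they carry letters of CHR or of an E2F site, elements through which these complexes are described to act. These genes had the greatest falls in MDA-MB-231 among the regulators with a start searched here. They come from RefSeq on GRCh38.p14 and read 5′ to 3′ on the strand of the gene, with capitals for letters of CHR (TTTGAA or TTCGAA) and of an E2F site. The E2F search used the words TTCCCGC along with TTCCCGG, then TTCGCGC along with TTCGCGG, next TTGCCGC along with TTGCCGG, and lastly TTGGCGC along with TTGGCGG; both searches used both strands; matches may overlap. FOXM1 has no entry in the table used here. No window of MYBL1 was searched, since the search left out the entries of its chromosome. The windows lie at chr1:226309162-226309311 on the minus strand (LIN9), chr20:43666964-43667113 on the plus strand (MYBL2), chr20:37095998-37096147 on the minus strand (RBL1) and chr4:83010824-83010973 on the minus strand (LIN54).
LIN9: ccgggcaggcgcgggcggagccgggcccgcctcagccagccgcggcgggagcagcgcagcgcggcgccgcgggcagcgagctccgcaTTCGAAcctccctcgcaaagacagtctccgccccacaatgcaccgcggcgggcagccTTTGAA
MYBL2: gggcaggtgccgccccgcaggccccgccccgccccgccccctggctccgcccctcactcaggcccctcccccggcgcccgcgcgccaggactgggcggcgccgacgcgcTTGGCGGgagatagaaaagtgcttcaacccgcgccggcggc
RBL1: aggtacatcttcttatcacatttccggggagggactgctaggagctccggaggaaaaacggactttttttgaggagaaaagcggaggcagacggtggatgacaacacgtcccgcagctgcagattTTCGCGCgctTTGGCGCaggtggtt
LIN54: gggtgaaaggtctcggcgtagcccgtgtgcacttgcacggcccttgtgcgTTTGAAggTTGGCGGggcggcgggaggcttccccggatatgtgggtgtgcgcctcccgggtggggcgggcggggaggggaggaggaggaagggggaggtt

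For the genes with several listed starts, LIN9 with 3 and LIN54 with 2, the most downstream start is shown. The LIN9 window ends 3 bases into the transcript so that its second CHR match is whole, and the first match begins 60 bases before the start. The windows of the other LIN9 starts held no CHR letters, and which start these cells use was not tested. In RBL1 the pair of E2F matches begins 25 and 15 bases before the start, in MYBL2 the single match begins 41 bases before it, and in LIN54 a CHR match and an E2F match begin 100 and 92 bases before it. Windows of 300 bases around the start were searched for 8 of the genes, 14 windows in all. CHR letters occurred in 5 of these 14 windows, at 4 genes (LIN9, LIN37, LIN54 and RBL2), and in 16.4% of the 35116 windows of the same length in the table. E2F letters occurred in 8 of 14 windows, at 6 genes (LIN9, LIN52, LIN54, RBBP4, MYBL2 and RBL1), and in 23.7% of all windows. The same windows were searched for letters of other elements. Those of MYB sites occurred in 1 of 14 windows (LIN9), beside 25.7% of all windows. Those of forkhead sites occurred in 1 of 14 (RBL2), beside 7.43%. Letters of the CCAAT element occurred in 5 of 14, beside 34.6%. Several of the 14 windows overlap each other, and a match is a run of letters, not a measured binding site.

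The arrays were alike in scale. Their medians lay between 6.16 and 6.26 (log2 signal) and arrays of 1 group correlated at 0.989 to 0.995 across genes, against 0.875 to 0.90 for arrays of different lines. Line identity followed the labels: VIM, ZEB1, FN1 and AXL, the 4 measured mesenchymal markers, were higher in MDA-MB-231, and 5 of 7 epithelial markers (EPCAM, KRT5, ESRP1, GRHL2 and CLDN4) were higher in HCC70. KRT18 was 0.28 higher in MDA-MB-231 (limma adjusted p = 0.023), and KRT8 did not pass (0.076). Of the measured markers of other cell types, LYZ, PECAM1, VWF, DCN and PLIN1 had group means of at most 5.76, and CD14 reached 8.52 in HCC70 vehicle and 8.14 under JQ1 against 5.72 in MDA-MB-231 vehicle; its part in the results was not tested. The BET readouts BRD2 (rises of 0.86 ± 0.089 SE in MDA-MB-231 and 1.22 ± 0.089 in HCC70, log2) and HEXIM1 (0.59 ± 0.13 and 1.11 ± 0.13) rose in both lines and MYC fell in both (by 0.41 ± 0.10 and 0.92 ± 0.10). BRD3 differed by -0.14 ± 0.078 and 0.08 ± 0.078 (limma adjusted p = 0.22 and 0.59). HEXIM1 missed the threshold in MDA-MB-231 when replicate 3 of both MDA-MB-231 groups and of JQ1-treated HCC70 was left out (adjusted p = 0.050) and in HCC70 with the mean of its clusters (0.37).

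The first question was what JQ1 did to these regulators in MDA-MB-231. LIN9, LIN54, RBBP4, MYBL1, MYBL2, FOXM1 and RBL1 fell, 7 of 10, where 17.0% of all genes tested fell and 27.8% passed in either direction (limma with Benjamini-Hochberg adjustment over all genes, threshold 0.05). LIN37, LIN52 and RBL2 did not pass. Of all genes that passed, 61.2% fell on the deposited scale, 48.9% after the arrays were centred on their medians and 48.6% after quantile normalization. The median change of the 10 genes was -0.55 on the log2 scale, beside 0.02 over all genes. The vehicle and JQ1 arrays did not overlap for these 7 genes, as for 38.0% of all genes.

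In HCC70, LIN9, RBBP4, MYBL2, FOXM1 and RBL2 fell, 5 of 10 against 12.5% of all genes, and LIN37 and MYBL1 rose, 2 of 10 against 9.18%. In either direction this is 7 of 10, where 21.7% of all genes passed; falls made up 57.7% of those on the deposited scale, 43.9% after centring and 50.4% after quantile normalization. The median change was -0.13, beside 0.0057 over all genes. The arrays of the groups did not overlap for 8 of the 10 genes and for 37.4% of all genes. LIN9, RBBP4, MYBL2 and FOXM1 fell in both lines, 4 of 10 against 6.89% of all genes, and 1 gene, MYBL1, changed in opposite directions, as 1.13% of all genes did. Only LIN9, FOXM1 and MYBL1 kept their HCC70 call under every alternative run; the values for the other 4 genes stand with each of them below.

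**Figure D1:**
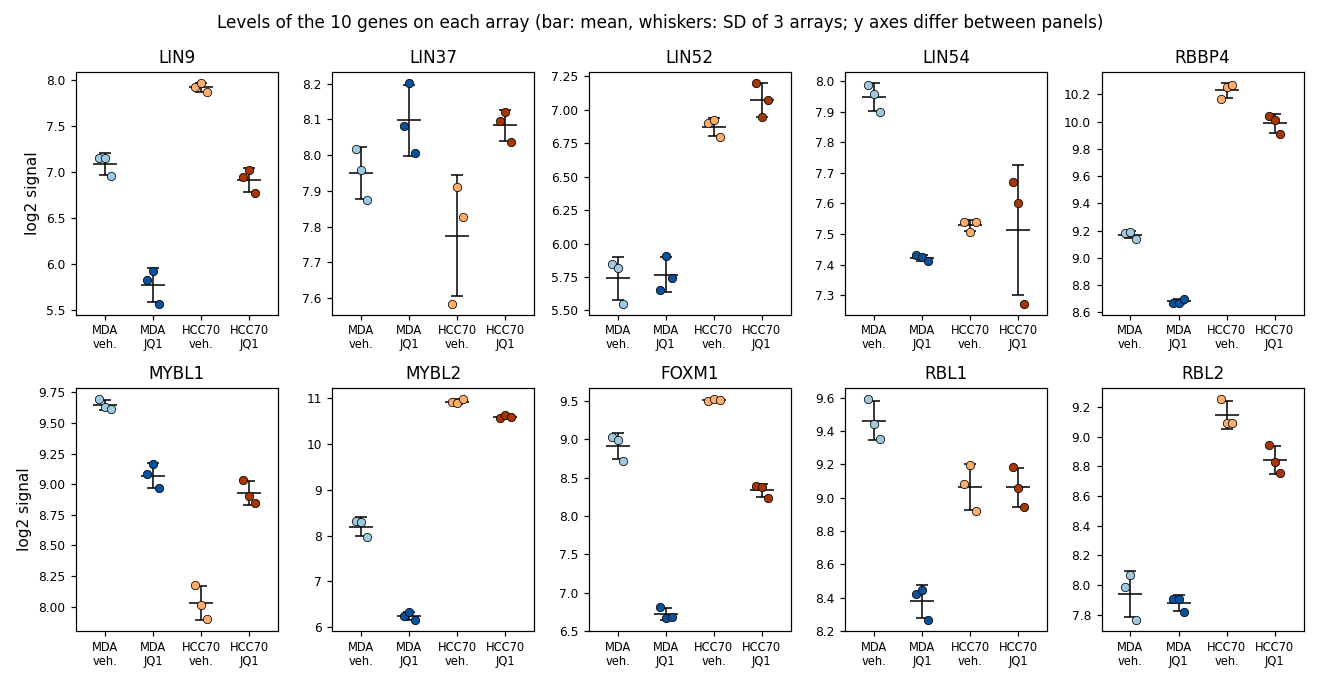
Log2 signal of the 10 genes on each of the 12 arrays, with 1 panel per gene; points are arrays, bars group means and whiskers the SD of 3 arrays, and the y axes differ between panels. LIN9 and FOXM1 drop under JQ1 in both lines, MYBL2 and RBL1 drop mainly in MDA-MB-231, and MYBL1 falls in MDA-MB-231 while it rises in HCC70.

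LIN9 links the MuvB core to B-MYB. In MDA-MB-231 its level was 7.16, 7.15 and 6.95 on the vehicle arrays and 5.82, 5.93 and 5.57 under JQ1. In HCC70 it was 7.92, 7.96 and 7.87 with vehicle and 6.94, 7.02 and 6.77 under JQ1. Every JQ1 array lay below every vehicle array of its line, and 1 of the 3 JQ1 arrays of HCC70 lay within the range of the MDA-MB-231 vehicle arrays, with the other two below it. LIN9 fell 2.49-fold in MDA-MB-231 (log2 change -1.31 ± 0.11 SE, limma adjusted p = 1.4e-06) and 2.01-fold in HCC70 (-1.01 ± 0.11, adjusted p = 2.7e-05). Just 298 of 14884 genes had a lower log2 change in MDA-MB-231, and 286 in HCC70. The effects differed between the lines by 0.31 (95% interval -0.02 to 0.64), which did not pass (adjusted p = 0.22). With vehicle, LIN9 was 1.78-fold higher in HCC70 (0.83 ± 0.11, adjusted p = 2.5e-05).

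Among the other MuvB subunits, LIN54, the DNA-binding one, was 7.99, 7.96 and 7.90 with vehicle and 7.43, 7.43 and 7.41 under JQ1 in MDA-MB-231. For HCC70 the values were 7.54, 7.51 and 7.54 with vehicle and 7.67, 7.60 and 7.27 under JQ1. The groups separated in MDA-MB-231 and overlapped in HCC70, where JQ1 replicate 3 was the low array. LIN54 fell by 0.53 ± 0.098 in MDA-MB-231 (limma adjusted p = 0.0013), and its change in HCC70 was -0.01 ± 0.098 (adjusted p = 0.95). The difference between the lines, 0.51 (95% interval 0.21 to 0.81), passed at adjusted p = 0.026. That call ended with all transcript clusters tested and without HCC70 JQ1 replicate 1 or 2, any 1 of the 3 HCC70 vehicle arrays, or MDA-MB-231 vehicle replicate 1 or 2 (adjusted p = 0.052 to 0.072).

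RBBP4, a histone chaperone that MuvB shares with several chromatin complexes, was 9.19, 9.19 and 9.14 with vehicle and 8.67, 8.67 and 8.70 under JQ1 in MDA-MB-231. In HCC70 the values were 10.17, 10.25 and 10.27 with vehicle and 10.04, 10.02 and 9.91 under JQ1. Its arrays were tightly grouped and did not overlap between treatments in either line. The fall was 0.49 ± 0.074 in MDA-MB-231 (limma adjusted p = 0.00026) and 0.24 ± 0.074 in HCC70 (adjusted p = 0.034). The call in HCC70 ended under 9 alternatives (adjusted p = 0.071 to 0.13), among them centred arrays, HCC70 fitted alone, and fits without HCC70 JQ1 replicate 2 or 3 or HCC70 vehicle replicate 2 or 3. The difference between the lines, 0.25 (0.02 to 0.48), did not pass (adjusted p = 0.14; 0.028 with trend and robust moderation). RBBP4 has processed pseudogenes, and its probes were not checked against them.

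LIN37, which is needed for repression by DREAM, was 8.02, 7.96 and 7.87 with vehicle and 8.08, 8.20 and 8.01 under JQ1 in MDA-MB-231, where the groups overlapped. In HCC70 it was 7.58, 7.91 and 7.83 with vehicle and 8.10, 8.12 and 8.04 under JQ1, and the groups did not overlap. The change was 0.15 ± 0.097 in MDA-MB-231 (limma adjusted p = 0.31; 0.020 after quantile normalization), and LIN37 rose by 0.31 ± 0.097 in HCC70 (adjusted p = 0.038). The HCC70 call ended under 9 alternatives (adjusted p = 0.052 to 0.16), including fits without any 1 HCC70 array other than vehicle replicate 2, and without MDA-MB-231 vehicle replicate 2. LIN52, the small subunit that holds the pocket protein or B-MYB, was 5.85, 5.82 and 5.55 with vehicle and 5.65, 5.91 and 5.74 under JQ1 in MDA-MB-231. Its HCC70 values were 6.90, 6.92 and 6.80 with vehicle and 7.20, 6.95 and 7.08 under JQ1. Its changes, 0.03 ± 0.11 and 0.20 ± 0.11, did not pass (limma adjusted p = 0.89 and 0.24), and the 95% intervals were -0.21 to 0.26 and -0.03 to 0.43.

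**Figure D2:**
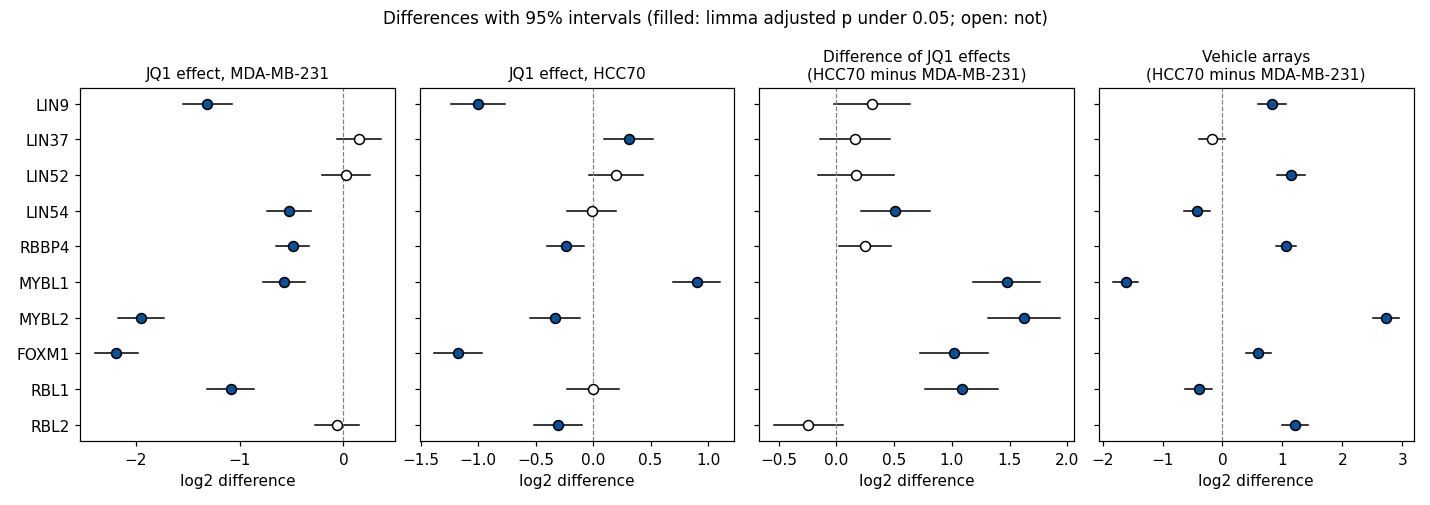
Log2 differences of the 10 genes with 95% intervals from limma, in 4 panels: the JQ1 effect in MDA-MB-231, the JQ1 effect in HCC70, the difference of these effects, and the vehicle arrays of HCC70 against those of MDA-MB-231. Filled points passed an adjusted p of 0.05; the difference of the effects is filled for LIN54, MYBL1, MYBL2, FOXM1 and RBL1.

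MYBL2 encodes B-MYB, the activator that joins MuvB in S phase. On the MDA-MB-231 arrays it was 8.33, 8.30 and 7.96 with vehicle and 6.24, 6.33 and 6.16 under JQ1. The HCC70 values were 10.91, 10.89 and 10.98 with vehicle and 10.57, 10.63 and 10.60 under JQ1. Both lines separated by treatment, and every HCC70 array, treated or not, lay above every MDA-MB-231 array. MYBL2 fell 3.87-fold in MDA-MB-231 (log2 change -1.95 ± 0.10, limma adjusted p = 2.8e-08) and 1.26-fold in HCC70 (-0.33 ± 0.10, adjusted p = 0.033). The HCC70 call ended without any 1 of the 6 HCC70 arrays, with all transcript clusters tested and with centred arrays (adjusted p = 0.067 to 0.11). The effects differed by 1.62 (95% interval 1.32 to 1.93, adjusted p = 9.5e-06). With vehicle MYBL2 was 6.63-fold higher in HCC70 than in MDA-MB-231 (2.73 ± 0.10, adjusted p = 2.3e-10), a difference exceeded by 198 genes.

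MYBL1 encodes A-MYB, the family member best known from germ cells. It was 9.70, 9.63 and 9.62 with vehicle and 9.08, 9.17 and 8.97 under JQ1 in MDA-MB-231. HCC70 gave 8.18, 8.01 and 7.90 with vehicle and 9.03, 8.91 and 8.85 under JQ1. The groups did not overlap in either line, and the direction was opposite. MYBL1 fell 1.49-fold in MDA-MB-231 (log2 change -0.58 ± 0.094, limma adjusted p = 0.00050) and rose 1.87-fold in HCC70 (0.90 ± 0.094, adjusted p = 2.3e-05), a rise exceeded by 125 of 14884 genes. The effects differed by 1.48 (95% interval 1.19 to 1.77, adjusted p = 1.2e-05). With vehicle the gene was 3.07-fold lower in HCC70 (-1.62 ± 0.094, adjusted p = 1.5e-08), and under JQ1 the means of the lines stood at 8.93 ± 0.096 (SD, n = 3) in HCC70 and 9.07 ± 0.10 in MDA-MB-231.

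FOXM1 is the transcription factor that follows B-MYB onto MuvB in G2. It measured 9.03, 8.98 and 8.72 with vehicle and 6.81, 6.67 and 6.68 under JQ1 in MDA-MB-231. In HCC70 it measured 9.49, 9.52 and 9.51 with vehicle and 8.39, 8.38 and 8.23 under JQ1. Every JQ1 array lay below every vehicle array of its line. FOXM1 fell 4.57-fold in MDA-MB-231 (log2 change -2.19 ± 0.096, limma adjusted p = 8.0e-09) and 2.26-fold in HCC70 (-1.18 ± 0.096, adjusted p = 2.6e-06). Of all genes, 59 had a lower change in MDA-MB-231 and 188 in HCC70. Its fall was smaller in HCC70 by 1.02 (95% interval 0.72 to 1.31, adjusted p = 0.00025), from a vehicle level 1.51-fold higher there (0.60 ± 0.096, adjusted p = 0.00016).

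Of the pocket protein genes, RBL1, which encodes p107 and is itself a described E2F target, was 9.59, 9.44 and 9.36 with vehicle and 8.42, 8.44 and 8.27 under JQ1 in MDA-MB-231. The HCC70 values were 9.08, 9.20 and 8.92 with vehicle and 9.18, 9.06 and 8.95 under JQ1. The treatments separated in MDA-MB-231 and lay over each other in HCC70. RBL1 fell 2.12-fold in MDA-MB-231 (log2 change -1.09 ± 0.10, limma adjusted p = 5.6e-06); in HCC70 the change was -0.0013 ± 0.10 with a 95% interval of -0.23 to 0.22. The difference of 1.09 (0.77 to 1.40) passed at adjusted p = 0.00028.

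RBL2, which encodes p130, the pocket protein prominent in resting cells, was 7.99, 8.07 and 7.76 with vehicle and 7.91, 7.91 and 7.82 under JQ1 in MDA-MB-231. In HCC70 it was 9.25, 9.09 and 9.09 with vehicle and 8.94, 8.83 and 8.75 under JQ1. The groups overlapped in MDA-MB-231 and not in HCC70. The change in MDA-MB-231 was -0.06 ± 0.097 (limma adjusted p = 0.70). RBL2 fell by 0.30 ± 0.097 in HCC70 (adjusted p = 0.040), a call that ended under 10 alternatives (adjusted p = 0.051 to 0.15), among them centred arrays and fits without any 1 HCC70 array other than JQ1 replicate 1, or without MDA-MB-231 JQ1 replicate 1 or 2. The effects differed by -0.24 (-0.54 to 0.05), which did not pass (adjusted p = 0.29; 0.033 after quantile normalization).

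In the test of the difference of the JQ1 effects, 5 of the 10 genes passed, all 5 with the higher value in HCC70, where 9.02% of all genes passed in that direction, 5.95% in the other and 15.0% in either. MYBL2, FOXM1, RBL1 and LIN54 had the larger fall in MDA-MB-231, and MYBL1 was called in opposite directions. The lines also started from different levels. With vehicle, LIN9, LIN52, RBBP4, MYBL2, FOXM1 and RBL2 were higher in HCC70, 6 of 10 against 23.8% of all genes, and LIN54, MYBL1 and RBL1 were higher in MDA-MB-231, 3 of 10 against 23.2%, which makes 9 of 10 against 47.0% in either direction. RBL2 was 2.31-fold higher in HCC70 (log2 difference 1.21 ± 0.097), LIN52 2.20-fold (1.14 ± 0.11) and RBBP4 2.08-fold (1.06 ± 0.074), while RBL1 and LIN54 were 1.32-fold and 1.34-fold lower there. The vehicle arrays of the lines did not overlap for 9 of the 10 genes, LIN37 being the exception, as for 55.2% of all genes.

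Genes around these regulators were read from lists that share members. CCNA2 and CDK1 stand among both the cyclins and kinases and the G2/M genes. CCNE1, CCNE2 and CDC25A stand among both the cyclins and kinases and the G1/S genes. Of 8 other DREAM and pocket protein partners with a named cluster, 4 fell in MDA-MB-231 and 3 in HCC70, beside 17.0% and 12.5% of all genes. The medians were -0.29 and -0.19, beside 0.02 and 0.0057 over all genes. TFDP1, the DP partner of E2F factors, fell by 0.66 ± 0.096 in MDA-MB-231, the retinoblastoma gene RB1 by 0.46 ± 0.090 and RBBP7, the paralogue of RBBP4, by 0.36 ± 0.087. In HCC70 the third MYB family gene, MYB, fell by 0.51 ± 0.10 (limma adjusted p = 0.0026). RB1 fell there by 0.32 ± 0.090 and the histone deacetylase HDAC1 by 0.27 ± 0.076. Either call ended with all transcript clusters tested, with centred arrays and without HCC70 JQ1 replicate 2, JQ1 replicate 3 or vehicle replicate 1, for RB1 also without vehicle replicate 2 and for HDAC1 without vehicle replicate 3 (adjusted p = 0.063 to 0.090 for RB1 and 0.056 to 0.078 for HDAC1).

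Cyclins act on the pocket proteins through their kinases, and the list of these genes also holds the phosphatase CDC25A. Of its 11 measured genes for cyclins, kinases and CDC25A, 8 fell in MDA-MB-231 and 4 in HCC70. This stands beside 17.0% and 12.5% of all genes (medians of the list -0.91 and -0.10). The listed inhibitors CDKN1B, CDKN1C, CDKN2B, CDKN2C and CDKN2D were not analysed here. CCNA2, which encodes cyclin A2, fell by 2.46 ± 0.085 in MDA-MB-231 and by 1.01 ± 0.085 in HCC70. Its kinase partner CDK1 and the phosphatase CDC25A fell by 2.07 ± 0.094 and 1.46 ± 0.11 in MDA-MB-231. CCND1, which encodes cyclin D1, fell by 0.64 ± 0.088 in HCC70 and changed by 0.13 ± 0.088 in MDA-MB-231 (limma adjusted p = 0.33), and the difference of the effects, -0.77, passed (adjusted p = 0.0011). CDK6 fell by 0.50 ± 0.086 in MDA-MB-231 and by 0.32 ± 0.086 in HCC70, and the difference of the effects did not pass (limma adjusted p = 0.37). The HCC70 call of CDK6 ended under 7 alternatives (adjusted p = 0.057 to 0.092), among them fits without HCC70 JQ1 replicate 2 or 3 or vehicle replicate 1 or 3.

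**Figure D3:**
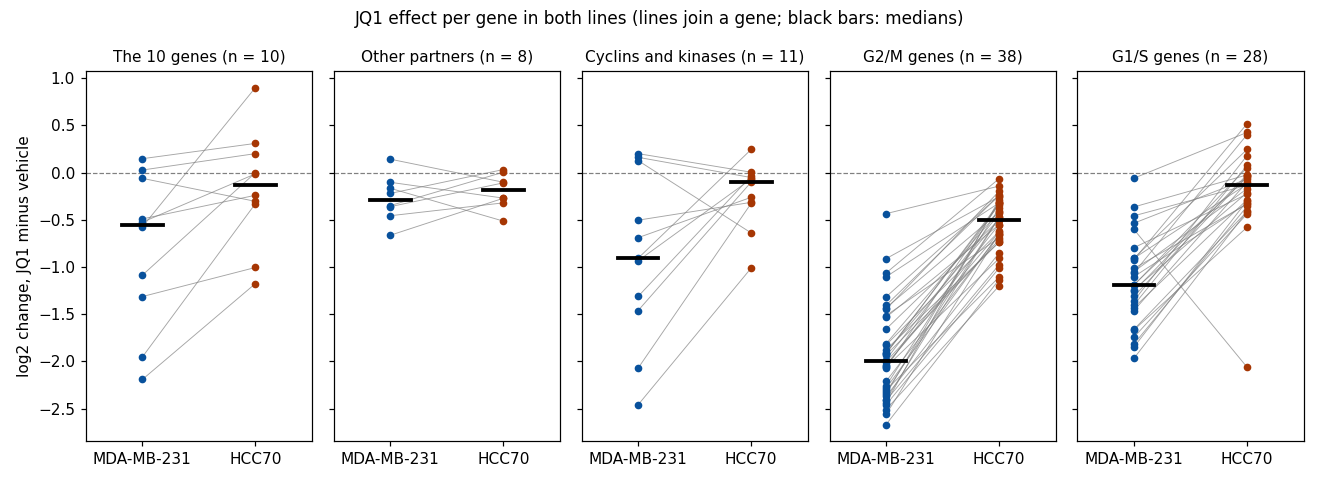
Log2 change under JQ1 of each gene in MDA-MB-231 (blue) and HCC70 (brown), with lines joining a gene and black bars at the medians, for the 10 regulators, their other partners, cyclins and kinases, G2/M genes and G1/S genes. The G2/M medians are -1.99 and -0.50, and the G1/S medians -1.19 and -0.13.

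The genes that MuvB is described to bind with B-MYB and FOXM1 in G2 and mitosis fell in all 38 measured cases in MDA-MB-231 and in 30 of 38 in HCC70, beside 17.0% and 12.5% of all genes. The medians were -1.99 and -0.50, beside 0.02 and 0.0057 over all genes. The difference of the effects passed for 37 of the 38, each higher in HCC70, beside 9.02% of all genes. CCNA2, the topoisomerase TOP2A (2.28 ± 0.080) and the anaphase activator CDC20 (2.35 ± 0.086) had the smallest p in MDA-MB-231. In HCC70 these were CCNA2, the spindle midzone protein PRC1 (a fall of 1.11 ± 0.094) and the kinesin KIF14 (1.13 ± 0.10). The count of 30 was not repeated under the alternatives. Within it, the calls of CDC20 and CDK1 each ended under 6 alternatives, among them centred arrays (limma adjusted p = 0.056 to 0.087 and 0.059 to 0.085). On RNA from whole cultures, a smaller share of cells in a cell cycle phase and less RNA per cell in that phase cannot be told apart.

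G1/S genes described as bound by DREAM through E2F fell in 27 of 28 cases in MDA-MB-231, beside 17.0% of all genes, with a median of -1.19. E2F3 fell by 1.85 ± 0.092, the replication factor MCM10 by 1.97 ± 0.11 and GINS1, a subunit of the replicative helicase, by 1.66 ± 0.096. In HCC70, 9 of 28 fell, beside 12.5% of all genes, and 3 rose, which is near the 9.18% of all genes that rose; the median was -0.13. Among these falls, the HCC70 calls of E2F3 and MCM10 ended under 10 and 3 alternatives (limma adjusted p = 0.055 to 0.13 and 0.051 to 0.058). The transcription factor E2F2 fell by 2.06 ± 0.11 in HCC70 and by 0.60 ± 0.11 in MDA-MB-231, and the effects differed by -1.46 (limma adjusted p = 4.3e-05). The helicase subunits MCM5 and GINS1 fell by 0.58 ± 0.096 and 0.41 ± 0.096 in HCC70. SLBP, the histone mRNA binding protein, rose by 0.43 ± 0.088, CLSPN, which encodes the replication checkpoint protein claspin, by 0.52 ± 0.14 and the licensing factor CDC6 by 0.40 ± 0.11. The CLSPN call ended with the mean of its clusters and without HCC70 JQ1 replicate 1 or vehicle replicate 1 or 2 (adjusted p = 0.056 to 0.067), and that of CDC6 with all transcript clusters tested and when any of JQ1 replicate 1, JQ1 replicate 2 and vehicle replicate 1 was left out (0.052 to 0.081).

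The genes with the pattern most like LIN9, MYBL2 and FOXM1 were found by Pearson correlation over the 12 arrays after the mean of each line was taken off. This measure mainly follows the change from vehicle to JQ1 within each line, and is a description. For LIN9 these were LMO7 (r = 0.996), DPYD (0.996) and IFITM2 (0.995); LMO7 changed by -1.22 in MDA-MB-231 and -1.06 in HCC70. For MYBL2 they were SIPA1L1 (0.998), SPAG5 (0.997) and CXCL8 (0.996); the spindle gene SPAG5 changed by -2.55 and -0.49. For FOXM1 they were NUP205 (0.998), PRC1 (0.998) and MARCKS (0.997); NUP205, a nuclear pore protein, changed by -1.27 and -0.72. Among the members, LIN9 correlated with FOXM1 at 0.978 and with RBBP4 at 0.957 in the same way. Its values with LIN54, MYBL2, RBL1 and RBL2 lay between 0.649 and 0.878. With LIN37, LIN52 and MYBL1 they were -0.652, -0.333 and -0.059.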

How the data were processed

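The deposited values are log2 signals of transcript clusters, 1 column per array; RMA, oligo and limma are named, without versions, in the submitters' processing notes, and 150 ng of RNA was labelled per sample, per the labels. Which build the array annotation used: not given in the sources used here. Of 53617 clusters, 16098 had 1 gene symbol, 0 several and 37519 none; for the 779 genes with more than 1, the cluster with the highest mean was kept, which left 14884 genes. Each of the 10 members had 1 cluster.

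A model of 4 group means over the 12 arrays was run in limma 3.58.1 (R 4.3.3; lmFit, eBayes; two-sided; Benjamini-Hochberg over all genes tested). SE is that of the coefficient and SD that of 3 arrays. Array number limits the precision. No filter on dim genes was applied; all member levels lay above the lower quartile of their arrays.

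The members and lists were chosen with earlier results of these data known. All members are named, with up to 3 genes of smallest p per list, direction and line. Deviations from the group means of same-numbered vehicle and JQ1 arrays correlated at r = 0.155, 0.121 and 0.362 across genes in MDA-MB-231. In HCC70 the values were -0.059, 0.015 and 0.070. Differently numbered arrays gave -0.25 to 0.121 in MDA-MB-231 and -0.142 to 0.135 in HCC70. Alternatives were a replicate block, single-line fits, trend and robust moderation, a level filter, cluster means, all clusters, quantile normalization, centring, each array left out, and replicate 3 of both MDA-MB-231 groups and of JQ1-treated HCC70 left out together, since an earlier analysis of these data described these arrays as standing apart.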

Additional observations from a re-analysis of the deposited data

Results flagged for a closer look

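The JQ1 effects of these genes differed between the lines in the test of the difference itself (HCC70 minus MDA-MB-231, log2, limma adjusted p under 0.05). Among the regulators the values were 0.51 for LIN54, 1.48 for MYBL1, 1.62 for MYBL2, 1.02 for FOXM1 and 1.09 for RBL1. MYBL1 was the 1 regulator called in opposite directions in the lines.

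Among the named cyclin, kinase and G2/M genes the differences were 1.45 for CCNA2, 2.04 for CDC20, 1.36 for CDC25A, 1.74 for CDK1, 1.54 for KIF14, 1.2 for PRC1 and 1.63 for TOP2A. Among the named G1/S genes they were 1.46 for CDC6, 1.44 for CLSPN, 1.55 for E2F3, 1.25 for GINS1, 1.56 for MCM10, 1.09 for MCM5 and 0.48 for SLBP. The difference was negative, with the lower change in HCC70, for E2F2 (-1.46), CCND1 (-0.77) and MYC (-0.50).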

How the results depend on the processing

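The 7 calls in MDA-MB-231 held under every alternative run, with 7 to 8 members called, and for the difference of the effects 4 to 6 were called, LIN54 being the call that was lost. In HCC70 the 7 calls became 3 with all transcript clusters tested, 4 with centred arrays, 4 without replicate 3 of both MDA-MB-231 groups and of JQ1-treated HCC70 together, and 3 to 7 when 1 array was left out. The calls lost there were those of LIN37, RBBP4, MYBL2 and RBL2, and the cause was not tested. Between the vehicle-treated lines 9 to 10 members were called, LIN37 after quantile normalization being the addition. Of the members' values under the alternatives, 772 kept their side of the threshold, 44 lost a call and 4 gained one, and 0 reversed a call. For JQ1 minus vehicle in MDA-MB-231, the replicate block gave 4210 calls over all genes in place of 4139, and for JQ1 minus vehicle in HCC70 it gave 3236 in place of 3229; among the members the block ended only the HCC70 call of RBBP4 (adjusted p = 0.076). The share of falls under the scalings stands with the counts above. The median change of all genes moved by less than 0.1 under these scalings.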
